A study of Solanum lycopersicum with 4 samples.

Results

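The genes at the entry of phenylpropanoid metabolism were followed in tomato (Solanum lycopersicum) leaves during 48 h at 10 °C. They are 10 genes of the 26219 listed in any of the deposited files, picked by gene identifier for the enzyme each encodes, without a rule on their values. There are 6 genes for phenylalanine ammonia-lyase (PAL), of which 4 lie in tandem on chromosome 9. The other members are 1 gene for cinnamate 4-hydroxylase (C4H), 2 genes for 4-coumarate CoA ligase (4CL) and 1 gene for hydroxycinnamoyl-CoA quinate transferase (HQT). The files carry no enzyme name for any of these genes, so the assignment of enzymes to identifiers was taken as given and could not be checked against them.

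The leaves came from the cultivar Moneymaker, as the first pair of true leaves of plants about 3 weeks old, with 1 RNA-seq library each at 0, 3, 24 and 48 h. Growth before the cold was at 25 °C with a light level of 100 µmol m-2 s-1, while the cold leaves received 40 µmol m-2 s-1, with 12 h days throughout. Temperature and light level therefore cannot be told apart, and if the leaves of 0 h were cut before the shift, every ratio to 0 h covers both. All 4 titles carry the temperature of 10 °C, the one for 0 h included, and the labels do not state that harvest's conditions further. If all plants were moved to the cold at the same hour, the 3 h library also differed from the rest in hour of day. The labels give no hour of day. How many plants went into a library is not given in the sources used here. In whole leaves, more RNA per cell and more cells of the expressing type cannot be told apart either.

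Phenylpropanoid metabolism turns the amino acid phenylalanine into precursors of lignin, flavonoids and chlorogenic acid. PAL removes ammonia from phenylalanine to give cinnamic acid, C4H hydroxylates it to p-coumaric acid, and 4CL joins that acid to coenzyme A. HQT then passes hydroxycinnamoyl groups to quinic acid, the step that leads to chlorogenic acid, a main soluble phenolic of tomato leaves. In many plants PAL transcripts respond to cold, light and wounding, and plants commonly carry several PAL genes.

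Depth was even, between 35.7 M (24 h) and 38.5 M (0 h) unique reads per library, where M is 1000000 reads. Levels are given as reads, as CPM (reads per 1000000 of a library scaled with TMM factors) or, between genes, as the RPKM deposited by the authors, which divides reads by gene length and by the plain library total. Fold values are ratios of scaled reads with an exact 95% Clopper-Pearson interval, which covers counting error only. With 1 library per time no test between times exists, so "higher" and "lower" below compare these libraries and not the times as conditions. Of the 10 members, 7 reached a mean of 5 CPM and were compared within 13840 genes. The other 3, Solyc09g007890, Solyc09g007900 and Solyc05g047530, did not, and are described by their reads. The 10 genes took 0.0698%, 0.113%, 0.283% and 0.213% of all unique reads in the libraries of 0, 3, 24 and 48 h.

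All 7 members compared were lowest at 0 h and highest at 24 h, and all were lower at 48 h than at 24 h, except that with plain library totals 1 of them, the PAL gene Solyc05g056170, was slightly higher at 48 h and had its highest level there. Of all genes compared, 23.1% had their highest level at 24 h, and 50.2% had a log2 ratio of 48 h to 24 h above 0. Ratios to 0 h above that value were found for 50.4%, 51.4% and 50.4% of them at 3, 24 and 48 h. The share of all genes lowest at 0 h was not computed. The 3 ratios to 0 h share the same 0 h library, so a low or high value there moves all 3 together.

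**Figure D1:**
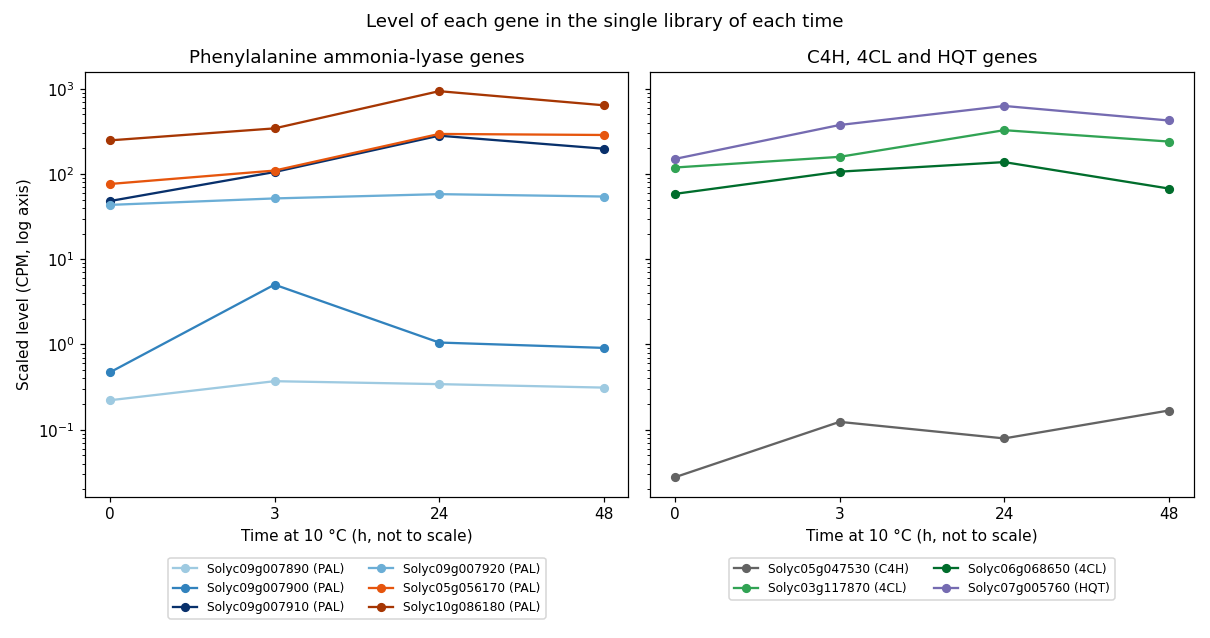
Scaled level of each of the 10 genes (CPM, log axis) against time at 10 °C, 1 point per library, with PAL genes on the left and C4H, 4CL and HQT on the right. The 7 genes above 40 CPM have their highest point at 24 h (with plain library totals Solyc05g056170 has it at 48 h), while Solyc09g007900 has its highest point at 3 h and Solyc05g047530 stays below 0.2 CPM.

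Solyc10g086180, a PAL gene on chromosome 10, was the most abundant of the 6 PAL genes per gene length at every time. It had 8955, 11098, 35575 and 26681 reads in the libraries of 0, 3, 24 and 48 h, or 248, 343, 936 and 639 CPM. Both late libraries stood well above both early ones. The level was 1.38-fold that of 0 h after 3 h (1.34 to 1.42), 3.78-fold after 24 h (3.69 to 3.87) and 2.58-fold after 48 h (2.52 to 2.64). At 24 h its RPKM of 466 ranked 219 among all listed genes, against rank 1028 with an RPKM of 109 at 0 h.

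Solyc05g056170, the PAL gene on chromosome 5, had 2757, 3550, 11202 and 11959 reads at 0, 3, 24 and 48 h, or 76.3, 110, 295 and 287 CPM. Its late levels lay close together and well above its early ones. Its level was 1.44-fold that of 0 h after 3 h (1.37 to 1.51), 3.86-fold after 24 h (3.71 to 4.03) and 3.76-fold after 48 h (3.60 to 3.92). The 48 h level was 0.972 of the 24 h level (0.947 to 0.998), and the log2 ratio of 48 h to 24 h was -0.04 with TMM factors but 0.03 with plain totals, so its direction between these libraries depends on the scaling.

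The 4 PAL genes in tandem on chromosome 9 did not move alike. Solyc09g007910 had 1739, 3413, 10691 and 8259 reads at 0, 3, 24 and 48 h, or 48.1, 105, 281 and 198 CPM. It had the highest ratios of all PAL genes compared, 2.19-fold after 3 h (2.07 to 2.32), 5.85-fold after 24 h (5.56 to 6.15) and 4.11-fold after 48 h (3.91 to 4.33), each relative to 0 h. Its log2 ratio at 24 h of 2.54 ranked 129 among the 13840 genes compared.

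The next gene in the row, Solyc09g007920, had 1567, 1673, 2203 and 2268 reads, or 43.4, 51.6, 58.0 and 54.4 CPM. Its 4 libraries differed little, with 1.19-fold the 0 h level after 3 h (1.11 to 1.28), 1.34-fold after 24 h (1.25 to 1.43) and 1.25-fold after 48 h (1.18 to 1.34). At 24 h relative to 0 h the log2 ratio of Solyc09g007910 exceeded that of Solyc09g007920 by 2.13 (95% counting interval 2.01 to 2.25, here and in later differences between genes from a normal approximation of log counts). Scaling cancels in this difference, since both genes were read in the same libraries.

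Solyc09g007900 peaked at 3 h instead. Its libraries of 0, 3, 24 and 48 h held 17, 163, 40 and 38 reads, so a single library stood far above the others. Its level at 3 h was 10.7-fold that of 0 h (6.48 to 18.8), and at 24 h it was 0.209 of the 3 h level (0.144 to 0.297). For every 100 reads of Solyc09g007910 there were 0.978, 4.78, 0.374 and 0.460 reads of Solyc09g007900 in the same order of times, so the reads of these copies did not keep 1 ratio. The remaining tandem gene, Solyc09g007890, had 8, 12, 13 and 13 reads, and its counting intervals included no difference at every time.

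Only a small part of each tandem gene was covered by reads. The covered share of the gene length, per the deposited files, was 21.3% to 24.0% for Solyc09g007910, 9.05% to 17.4% for Solyc09g007920, 15.9% to 22.8% for Solyc09g007900 and 14.2% to 25.1% for Solyc09g007890. For Solyc10g086180 and Solyc05g056170 it was at least 95.5%. For Solyc09g007910 and Solyc09g007920 such low coverage was rare at comparable depth, since only 8 of 3937 genes with at least 1500 reads at 0 h (0.203%) were covered over less than 25% of their length, with a median of 98.3%. Solyc09g007900 and Solyc09g007890 had too few reads for that comparison. Solyc09g007910 is listed with a length of 7405 bases, against 2136 to 3238 bases for the other PAL genes, which lowers its RPKM. The covered part of Solyc09g007920 came to 293, 451, 562 and 484 bases in the 0, 3, 24 and 48 h libraries. If unique reads leave out those that match several copies, counts of near-identical tandem copies are too low. How far the split of reads among the 4 copies reflects their transcripts was not tested.

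Summed over the 6 PAL genes, the libraries of 0, 3, 24 and 48 h held 15043, 19909, 59724 and 49218 reads, or 416, 615, 1572 and 1180 CPM. The sum was 1.48-fold that of 0 h after 3 h (1.45 to 1.51), 3.78-fold after 24 h (3.71 to 3.84) and 2.83-fold after 48 h (2.78 to 2.89). In the sum, a read assigned to one PAL gene instead of another makes no difference. The 4 tandem genes together were 3.70-fold and the 2 others together 3.80-fold above 0 h at 24 h.

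The PAL genes contributed to that sum in shifting shares. Solyc10g086180 gave 59.5% of the PAL reads at 0 h (58.7% to 60.3%, exact Clopper-Pearson), 55.7% after 3 h, 59.6% after 24 h and 54.2% after 48 h (53.8% to 54.7%). The share of Solyc09g007910 was 11.6% at 0 h (11.1% to 12.1%) and lay between 16.8% and 17.9% at the 3 later times. Solyc09g007920 gave 10.4%, 8.40%, 3.69% and 4.61% in the order of the times. The share of Solyc05g056170 was highest at 48 h with 24.3% (23.9% to 24.7%), against 17.8% to 18.8% in the other libraries.

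**Figure D2:**
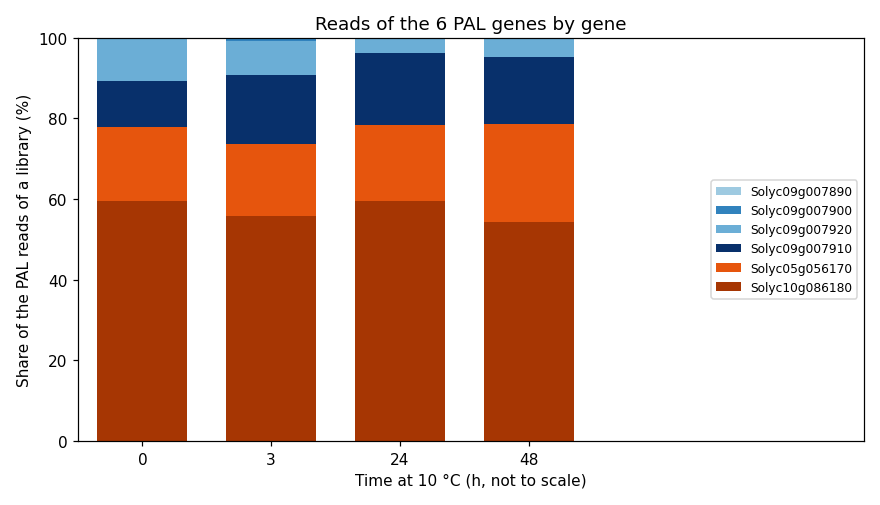
Share of the reads of all 6 PAL genes (percent, stacked bars) that came from each gene in the library of each time. Solyc10g086180 takes at least 54.2% of every bar, and the band of Solyc09g007920 is 10.4% at 0 h and 3.69% at 24 h.

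The C4H gene Solyc05g047530 was nearly without reads. It had 1, 4, 3 and 7 reads in the libraries of 0, 3, 24 and 48 h, with an RPKM of at most 0.0995. The level at 48 h was 6.06-fold that of 0 h, with a counting interval of 0.779 to 273 that included no difference, and the intervals at 3 and 24 h did so as well. These reads show no level at which a change could be seen. Whether another gene supplied this step in the leaves was not analysed here.

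The 2 4CL genes followed different courses. Solyc03g117870 had 4302, 5145, 12403 and 10017 reads at 0, 3, 24 and 48 h, or 119, 159, 326 and 240 CPM. Its late libraries both stood above its early ones, with 1.33-fold the 0 h level after 3 h (1.28 to 1.39), 2.74-fold after 24 h (2.65 to 2.84) and 2.02-fold after 48 h (1.95 to 2.09).

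Solyc06g068650 had 2110, 3447, 5237 and 2815 reads, or 58.4, 106, 138 and 67.5 CPM. It was high at 3 and 24 h and nearer its starting level at 48 h, with 1.82-fold the 0 h level after 3 h (1.73 to 1.92), 2.36-fold after 24 h (2.24 to 2.48) and 1.16-fold after 48 h (1.09 to 1.22). How near depends on the scaling, since its log2 ratio of 48 h to 0 h was 0.21 with TMM factors but 0.46 with plain totals. The log2 ratio of Solyc03g117870 was below that of Solyc06g068650 by 0.45 at 3 h (difference -0.45, counting interval -0.55 to -0.35). It was above it by 0.22 at 24 h (0.13 to 0.30) and by 0.80 at 48 h (0.71 to 0.90), each relative to 0 h.

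HQT, Solyc07g005760, had the highest ratio of 3 h to 0 h among the 7 members compared, followed by the PAL gene Solyc09g007910 with 2.19-fold, whose course was also the nearest to that of HQT (root mean square distance of 0.43 between their 3 log2 ratios). It had 5425, 12160, 23864 and 17689 reads at 0, 3, 24 and 48 h, or 150, 375, 628 and 424 CPM, so every later library was far above 0 h. The level was 2.50-fold that of 0 h after 3 h (2.42 to 2.58), 4.18-fold after 24 h (4.06 to 4.31) and 2.82-fold after 48 h (2.74 to 2.91). At 3 h its log2 ratio to 0 h exceeded that of the PAL gene Solyc10g086180 by 0.85 (0.79 to 0.92), while at 24 h the difference was 0.15 (0.09 to 0.20). Between 24 and 48 h both genes had about the same ratio, with a difference of -0.02 and a counting interval of -0.05 to 0.02.

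**Figure D3:**
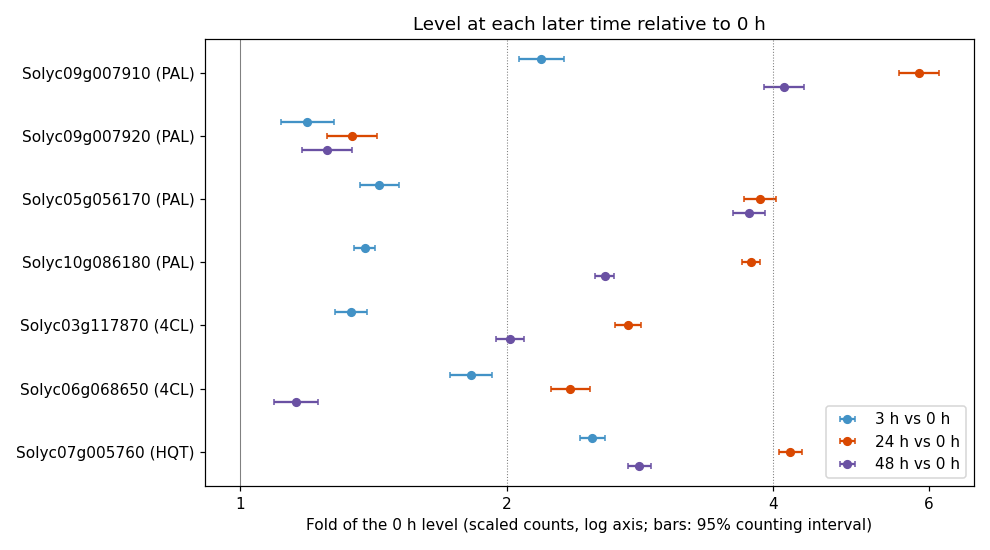
Level at 3, 24 and 48 h relative to 0 h for the 7 members compared (fold of scaled counts, log axis), with bars for the 95% counting interval and dotted lines at 2-fold and 4-fold. At 24 h 6 of the 7 genes lie beyond 2-fold, and Solyc09g007910 and Solyc07g005760 beyond 4-fold.

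Per gene length, the 4CL gene Solyc03g117870 alone of the 7 members compared kept its place in the order, the third, at all 4 times. At 0 h Solyc10g086180 led with an RPKM of 109, followed by HQT with 85.6 and the 4CL gene Solyc03g117870 with 55.1. Solyc06g068650 (27.9, Poisson counting interval 26.8 to 29.2) and Solyc05g056170 (27.3, 26.3 to 28.3) had overlapping intervals. At 3 h HQT was first with an RPKM of 205, above Solyc10g086180 with 144. At 24 and 48 h Solyc10g086180 was first again with 466 and 334, and HQT second with 406 and 288. Solyc05g056170 moved above Solyc06g068650 at the late times, with 119 and 74.8 at 24 h and 122 and 38.4 at 48 h. Solyc09g007910 was below Solyc09g007920 at 0 h, with an RPKM of 6.10 and 12.6, and above it at 24 h, with 40.4 and 19.0. By reads Solyc09g007910 was already the higher at 0 h, with 1739 against 1567. The RPKM order at 0 h thus rests on the listed lengths of 7405 and 3238 bases, each covered only in small part.

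Set against all genes compared, the members' ratios to 0 h lay high. At 3 h 2 of the 7 members compared exceeded their 0 h level at least 2-fold, namely Solyc09g007910 and Solyc07g005760, where 4.76% of all genes compared were. At 24 h 6 of 7 did so, beside 9.65% of all genes, and at 48 h 5 of 7, beside 10.0%. The 4-fold level was passed upward by 0 of 7 members at 3 h (1.42% of all genes), 2 of 7 at 24 h (2.17%) and 1 of 7 at 48 h (2.06%). These calls use log2(CPM + 0.135), a pseudocount of 5 reads. At least 2-fold lower than at 0 h were 0 of 7 members at any time, beside 156, 1146 and 1173 of the 13840 genes at 3, 24 and 48 h. Between the late and the early cold, 4 of 7 had a 24 h level at least 2-fold that of 3 h, beside 8.24% of all genes. Solyc06g068650 alone was at least 2-fold lower at 48 h than at 24 h, beside 1.47% of all genes, with a log2 ratio of -1.03 that became -0.96 with plain totals.

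The 7 members had median log2 ratios to 0 h of 0.52 after 3 h, 1.92 after 24 h and 1.37 after 48 h, against medians of 0.0024, 0.023 and 0.0046 for all genes. With plain library totals the median of all genes was 0.20 at 24 h and 0.26 at 48 h, and those of the members 2.10 and 1.62. The 3 members below 5 CPM are not in these counts and medians.

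**Figure D4:**
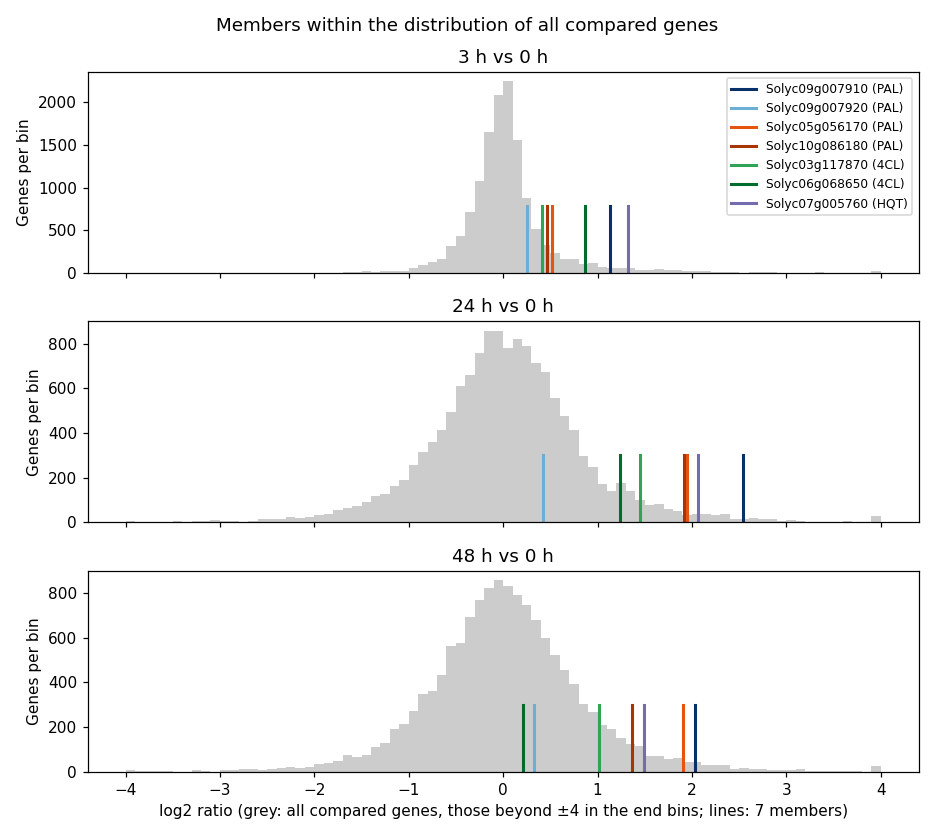
Number of genes per bin of the log2 ratio to 0 h (bins of 0.1) for all 13840 genes compared, in grey, with a coloured line at the ratio of each of the 7 members, for 3, 24 and 48 h from top to bottom. All lines lie to the right of 0 in every panel, from 0.42 to 2.54 at 24 h.

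Among the 7 members compared, the courses of Solyc05g056170 and Solyc10g086180 were the most alike, with a root mean square distance of 0.31 between their 3 log2 ratios to 0 h. The tandem neighbours Solyc09g007910 and Solyc09g007920 were the least alike of these 7, at 1.66. Outside the members, the gene nearest to the course of the summed PAL genes was Solyc08g065190, at a distance of 0.10. It had 451, 532, 1783 and 1431 reads at 0, 3, 24 and 48 h and a level 3.76-fold that of 0 h at 24 h (3.39 to 4.18). The measure uses 3 ratios with a shared 0 h library, and of the 13833 other genes compared 40 lay within 0.25 of the PAL course and 389 (2.81%) within 0.5.

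Most compared genes beside the members were within 2-fold of their 0 h level, as were most of all genes compared. Chromosome and order were read from the identifiers, which number tomato genes along each chromosome. Of the 70 genes within 5 listed identifiers on either side of the 7 member loci, 36 were compared. Relative to 0 h, 5 of these 36 were 2-fold or more up at 24 h and 1 was 2-fold or more down, with a median log2 ratio of -0.01. At 48 h 5 were 2-fold or more up and 4 were 2-fold or more down. Among all 13840 genes compared, 1335 (9.65%) were up and 1146 down by that much at 24 h. At 48 h it was 1389 (10.0%) up and 1173 down. The members above every compared flanking gene of their locus were 4 of 7 at 3 h, 5 of 7 at 24 h and 3 of 7 at 48 h. This bar differed between loci, with from 3 compared flanking genes for Solyc06g068650 to 8 for Solyc05g056170. Solyc09g007910 and Solyc09g007920 had the same flanking genes, and no expected share was computed. Solyc09g007910, Solyc05g056170 and HQT were above all their compared flanking genes at each of these times, and Solyc09g007920 and the 4CL gene Solyc03g117870 at none.

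Next to that 4CL gene lies Solyc03g117860, which had 16, 55, 3969 and 3666 reads at 0, 3, 24 and 48 h. Its level at 24 h was 236-fold that of 0 h (145 to 413). At 0 and 3 h it had only 0.443 and 1.70 CPM, so it reached the mean of 5 CPM only through its late libraries. Its 0 h level rests on 16 reads, and it was named for having the largest ratio of the adjacent genes. The listed gene on the other side of the 4CL gene was lower at 24 h than at 0 h, with a log2 ratio of -0.57. Among the adjacent genes that reached 5 CPM, the smallest ratio was that of Solyc10g086170, beside the PAL gene Solyc10g086180, with 2481, 1131, 1074 and 1387 reads. It was 0.412 of the 0 h level at 24 h (0.383 to 0.442), where the PAL gene next to it was at 3.78-fold its own 0 h level. Below that minimum, Solyc07g005750 beside HQT had 162, 86, 60 and 56 reads and lower log2 ratios to 0 h, -1.43 at 24 h and -1.64 at 48 h.

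**Figure D5:**
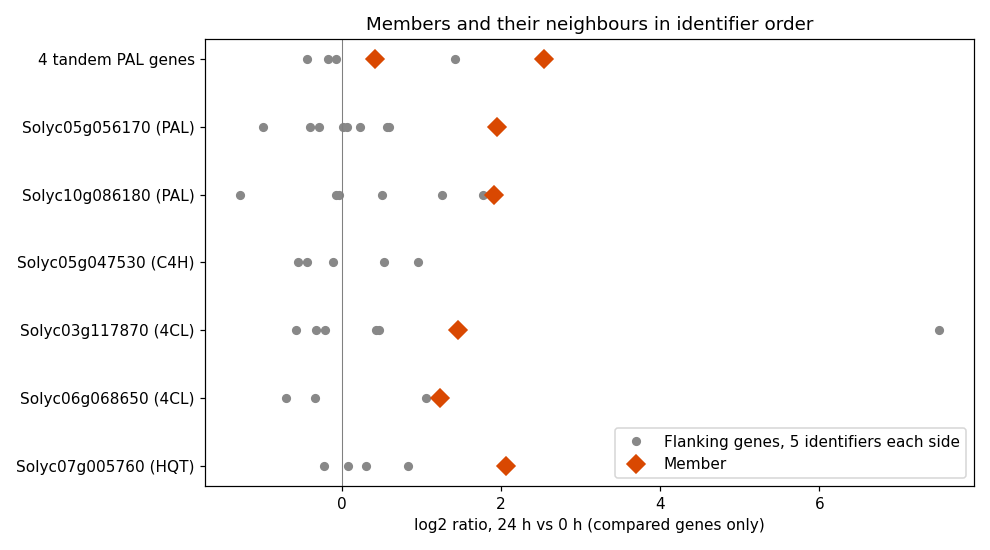
Log2 ratio of 24 h to 0 h for the compared members (diamonds) and the compared genes within 5 listed identifiers of each locus (grey points), 1 row per locus. The flanking genes scatter around a median of -0.01, and Solyc03g117860 lies at 7.50 in the row of the 4CL gene Solyc03g117870. These log2 ratios include the pseudocount of 5 reads, while the 236-fold value given for Solyc03g117860 does not.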

How the data were processed

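Per the file headers, each gene comes with its unique read count, its length, a coverage percent and an RPKM value. The authors' counts were whole numbers that summed to the total in each header, and the authors' RPKM followed from count, length and that total. The sources used here name no aligner, counting tool, strand setting, build or annotation. Scaling used TMM factors from edgeR 4.0.16 in R 4.3.3 (0.938, 0.897, 1.06 and 1.12 in time order). Genes listed in all 4 files with a mean of at least 5 CPM were compared. At that minimum, about 185 reads, equal counts have a counting interval of ± 0.30 in log2. Calls were fold thresholds on log2(CPM + 0.135), and no p-value was computed. Calls, scaling and intervals were tested on simulated data that held counting error only and few changed genes. Such data cannot show how the calls and intervals fare with variation between plants.

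The members, lists and thresholds were chosen with earlier results of these data known. All members are named. Of other genes 4 are named by rule, namely the compared gene nearest to the summed PAL course, the adjacent gene with the largest ratio, and those with the smallest ratio with and without the minimum of 5 CPM. A pathway list and a leaf marker list were not used, since 0 of 41476 genes in the RefSeq table of assembly SLM_r2.1 carried such identifiers. Alternatives were DESeq2 1.42.0 size factors, plain totals, pseudocounts of 0.5 and 25 reads, no filter, a minimum of 20 CPM, and other PAL sums.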

Additional observations from a re-analysis of the deposited data

Results flagged for a closer look

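Solyc09g007900, a tandem PAL gene below the minimum of 5 CPM and so outside the comparisons across genes, was above its 0 h level beyond counting error at every later time. It was 10.7-fold higher at 3 h, 2.24-fold higher at 24 h (1.24 to 4.21) and 1.94-fold higher at 48 h (1.07 to 3.66). Its reads covered at most 22.8% of the gene. No test between times could be made with single libraries.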

How the results depend on the processing

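No paired analysis was possible because the times have 1 library each, which also leaves nothing to omit. Of 120 values of the counts of members called, 114 stayed within 1.5 times the reported count. Most of the reported counts were 0. Other pseudocounts or a minimum of 20 CPM could hardly move members that all lay well above that minimum. That number was therefore largely fixed in advance. With plain library totals 4 members instead of 2 were at least 4-fold higher at 24 h than at 0 h, 2 instead of 1 at 48 h, and 0 instead of 1 were 2-fold lower at 48 h than at 24 h, since that scaling raises the late libraries. Without a filter on low counts Solyc09g007900 was added, giving 1 member 4-fold higher at 3 h than at 0 h and 1 member both 2-fold and 4-fold lower at 24 h than at 3 h, by construction. The summed PAL fold relative to 0 h at 3, 24 and 48 h was 1.41, 4.28 and 3.37 with plain totals, 1.76, 3.70 and 2.75 for the tandem genes alone and 1.42, 3.67 and 2.74 with counts divided by length. For the other PAL genes alone it was 1.40 at 3 h. Of 120 log2 ratios of single members to 0 h under other scalings and pseudocounts, 18 left their counting interval and 0 changed sign. All of the 18 were with plain library totals, except that of Solyc09g007900 at 3 h with a pseudocount of 25 reads. DESeq2 size factors lay close to the TMM scaling, and other pseudocounts hardly touch genes with many reads. Those settings could therefore move few ratios. Depth limits what can be said of Solyc05g047530 and Solyc09g007890, with at most 7 and 13 reads.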
